A study of Mus musculus with 12 samples.

Results

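The 7 MHC class II genes described here are Cd74, H2-Aa, H2-Ab1, H2-Eb1, H2-DMa, H2-DMb1 and Ciita. They were taken by symbol from a deposited table of 22552 genes, and all 7 listed symbols were found in it. The table holds FPKM, fragments per kilobase of transcript corrected for library depth, in 7 columns, a single column per group, made from 12 mouse RNA-seq samples of strain C57Bl/6. The muscle columns were wild type (2 samples), homozygous knockout of Lbr, the lamin B receptor of the inner nuclear membrane (2 samples), and homozygous knockout of Lmna, which encodes lamins A and C (2 samples), all from tissue labelled striated muscle. The myoblast columns were the Lbr knockout (2 samples), its litter's wild type (1 sample), the Lmna knockout (2 samples) and its litter's wild type (1 sample). The parents were heterozygous, and homozygous offspring were compared with wild-type littermates; for age, the design of the alleles, culture and pooling of animals, the labels used here give nothing. The 2 samples of a group appear in the table as 1 value, so no value below carries a replicate error, and both muscle knockouts share the same wild-type column.

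MHC class II molecules are heterodimers of an alpha and a beta chain that carry peptides from endocytosed protein to the cell surface, where CD4+ T cells read them. They are best known from B cells, dendritic cells and macrophages, and are low or absent in muscle fibres at rest. H2-Aa and H2-Ab1 encode the alpha and beta chain of I-A, and H2-Eb1 the beta chain of I-E; mice of the b haplotype, such as C57Bl/6, lack a working I-E alpha gene. Cd74 encodes the invariant chain, which fills the peptide groove during transport, and H2-DMa with H2-DMb1 encodes H2-DM, which exchanges the remnant of the invariant chain for peptide. Ciita encodes the coactivator that switches these genes on together, through promoter elements named the X and Y boxes, which bind the RFX and NF-Y complexes.

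Promoters are shown because the genes share this control and because several of them differed together in muscle. RefSeq windows (build GRCm38.p6, 250 bases before to 50 after the transcription start) were matched for H2-Aa, H2-Eb1, H2-DMb1 and H2-DMa, the last with 2 windows; Cd74, H2-Ab1 and Ciita were not searched here. The X-box core ACNGATG and the Y-box core ATTGG, which do not overlap each other, were searched on both strands. The X core was found in 9.85% and the Y core in 37.4% of 32851 promoter windows, and a Y core 10 to 30 bases after an X core on the same strand in 0.158% (52 windows). H2-Eb1 (chr17:34305617-34305916, plus strand) held the pair, with 22 bases between the cores and the X core beginning 88 bases before the start. H2-DMb1 (chr17:34152941-34153240, plus strand) held it with 23 bases between the cores and the X core beginning 91 bases before the start. In H2-Aa (chr17:34287774-34288073, minus strand) a Y core began 48 bases before the start. An X core was found only on the reverse strand, near the upstream end of the window and away from the Y core. No pair was counted. Of the H2-DMa windows, 1 held a single Y core and neither held the pair. Of the other class II genes, H2-DMb2 and H2-Eb2 also held it, H2-Oa held both cores but no pair, and H2-Ob only a Y core. The search took exact cores only, so a missing core or pair does not show that an X box is absent. The 3 windows follow 5′ to 3′ on the strand of the gene, with X and Y cores on either strand in capitals.
H2-Eb1: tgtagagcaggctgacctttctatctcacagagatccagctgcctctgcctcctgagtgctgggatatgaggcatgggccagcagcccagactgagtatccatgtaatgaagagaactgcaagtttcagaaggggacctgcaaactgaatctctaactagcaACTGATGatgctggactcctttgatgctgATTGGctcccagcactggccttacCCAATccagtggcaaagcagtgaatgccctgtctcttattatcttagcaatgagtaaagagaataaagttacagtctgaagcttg
H2-DMb1: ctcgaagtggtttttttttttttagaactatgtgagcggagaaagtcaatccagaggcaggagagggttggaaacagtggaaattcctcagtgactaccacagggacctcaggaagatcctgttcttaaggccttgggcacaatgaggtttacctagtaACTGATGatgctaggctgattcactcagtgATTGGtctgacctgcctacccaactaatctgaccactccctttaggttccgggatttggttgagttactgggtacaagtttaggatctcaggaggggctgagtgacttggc
H2-Aa: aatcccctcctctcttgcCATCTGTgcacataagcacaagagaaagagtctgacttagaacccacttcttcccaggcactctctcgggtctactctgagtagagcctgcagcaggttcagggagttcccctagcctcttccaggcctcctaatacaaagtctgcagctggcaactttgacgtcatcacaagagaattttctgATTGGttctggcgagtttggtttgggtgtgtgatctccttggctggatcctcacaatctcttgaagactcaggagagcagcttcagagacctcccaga

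Each column was checked against its label. Lbr stood at 7.71 FPKM in the Lbr knockout and 16.1 in its wild type in myoblasts, and at 1.87 and 11.8 in muscle. Lmna stood at 18.5 FPKM in the Lmna knockout and 147 in its wild type in myoblasts, and at 22.6 and 59.5 in muscle. The summed FPKM of 4 muscle fibre genes (Ckm, Acta1, Myh4 and Tnnt3) was 38026 to 48073 in the muscle columns. In the columns labelled myoblast the satellite cell factor Pax7 was at 0.152 to 0.273 FPKM, Myf5 at 0.191 to 0.441, Myod1 at 2.09 to 5.51 and Des at 18.7 to 85.2. There 12 macrophage markers summed to 395 to 1439 FPKM, of which Lyz2 alone gave 316 to 1131. Depth is known only roughly: from the FPKM of 4179 genes with a single transcript, 1 FPKM of a 1 kb transcript was worth about 11.9 to 16.0 fragments in myoblasts and 3.16 to 4.07 in muscle.

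All 7 genes were detected in every muscle column, and 6 of them in every myoblast column. In wild-type, Lbr-knockout and Lmna-knockout muscle, Cd74, the invariant chain, measured 14.0, 65.4 and 38.5 FPKM. H2-Aa measured 4.14, 16.5 and 14.1 FPKM, H2-Ab1 6.66, 16.5 and 11.8 FPKM, and H2-Eb1 4.78, 16.8 and 9.53 FPKM. These 4 genes were lowest in wild-type muscle and highest in the Lbr knockout, and their order of the 3 columns was the same. The DM chains were lower: H2-DMa measured 2.003, 4.56 and 3.01 FPKM and H2-DMb1 1.13, 1.95 and 0.835 FPKM. Ciita, the coactivator, measured 0.296, 0.666 and 0.470 FPKM, which corresponds to about 7.23, 12.7 and 9.04 fragments. In the myoblast order of Lbr-litter wild type, Lbr knockout, Lmna-litter wild type and Lmna knockout, Cd74 measured 1.18, 4.09, 4.76 and 1.62 FPKM. H2-Aa (0.0977 to 0.388 FPKM) and H2-Eb1 (0.102 to 0.339 FPKM) were near the limit of detection there, H2-Aa with about 1.77 to 5.20 fragments a column. H2-Ab1 lay between 0.702 and 1.23 FPKM. Of the DM chains, H2-DMa measured 1.496, 4.52, 3.67 and 4.23 FPKM and H2-DMb1 0.771, 1.04, 1.65 and 2.32 FPKM. Ciita was at 0.0159 to 0.0645 FPKM in 3 myoblast columns and is listed at 0 in the Lmna-litter wild type. With 1 value per group, whether neighbours in these orders differ beyond the spread of animals cannot be read from the table.

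**Figure D1:**
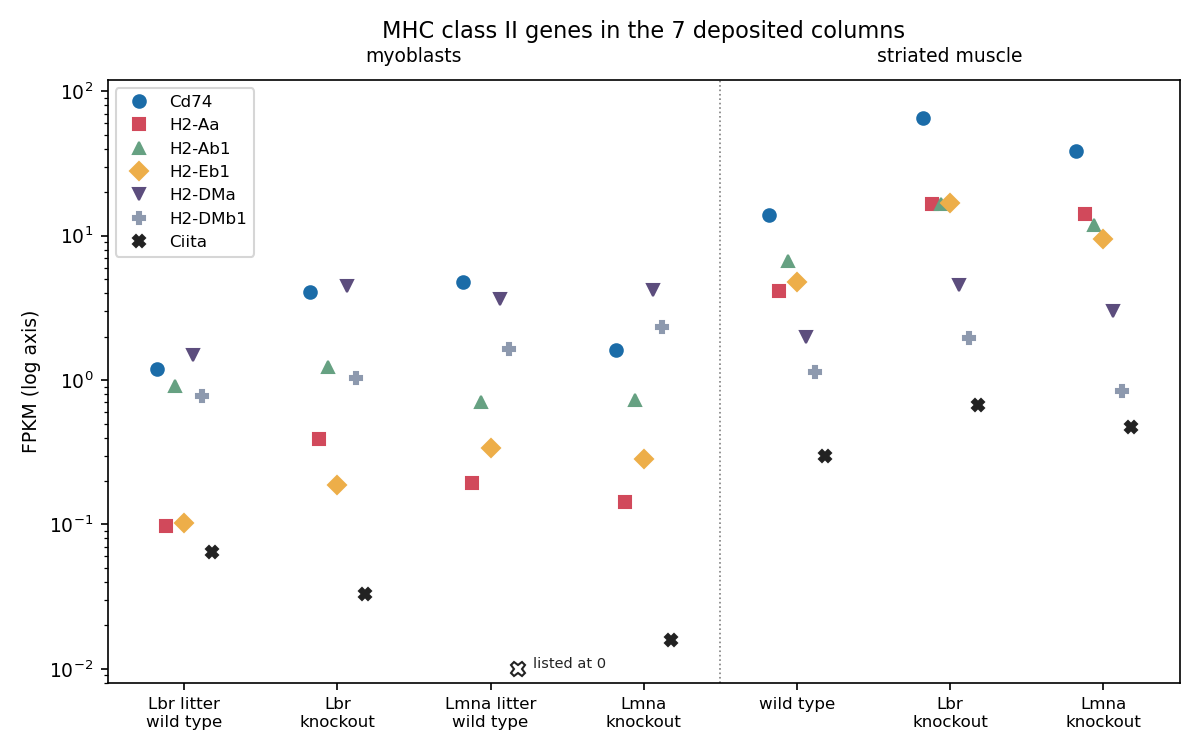
FPKM of the 7 MHC class II genes (log axis) in the 4 myoblast and 3 striated muscle columns, 1 point per gene and column, with no error since each group has 1 value; an open cross marks Ciita listed at 0. Cd74 reaches 65.4 FPKM in Lbr-knockout muscle, and the alpha and beta chain genes stand near 16.5 FPKM there and at most at 1.23 FPKM in the myoblast columns.

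The first comparison asked which genes differ in muscle without the lamin B receptor. Cd74, both I-A chain genes and H2-Eb1 were higher in the Lbr knockout by 2-fold or more, while H2-DMa and H2-DMb1 were above wild type by less. Differences were taken on log2(FPKM + 1) over genes averaging at least 1 FPKM, a scale that understates the change of low genes, and a log2 value of 1 served in place of a test. Cd74 differed by 2.15, which is the rank 12 from the top among 12000 genes. The alpha chain H2-Aa differed by 1.77 (rank 24), H2-Eb1 by 1.62 (rank 35) and H2-Ab1 by 1.20 (rank 100). For the DM chains the difference was 0.89 for H2-DMa and 0.47 for H2-DMb1. Thus 4 of the 6 genes past the filter were higher by 2-fold or more, against 1.32% of all 12000 genes, and the 6 had a median of 1.41 against 0.10. All 6 were above 1 FPKM in wild type as well. Ciita, below the filter, differed by 0.36 on this scale, with an FPKM ratio of 2.25. H2-DMa likewise had an FPKM ratio of 2.28, so its place under the threshold comes with the pseudocount: with a pseudocount of 0.1 its difference was 1.15, and with one of 5 that of H2-Ab1 was 0.89. Relative to the median of all genes, the 4 genes past the threshold differed by 1.09 to 2.05. In tissue RNA, more cells of a type and more RNA per cell cannot be told apart.

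In muscle without lamins A and C, measured against the same wild-type column, H2-Aa and Cd74 passed the threshold and the other chain genes did not. H2-Aa differed by 1.56 (rank 53 of 12025) and Cd74 by 1.40 (rank 78), an order that turned with a pseudocount of 5 (1.07 and 1.20). H2-Eb1 differed by 0.86, H2-Ab1 by 0.74 and H2-DMa by 0.42. That is 2 of 5 genes past the filter higher by 2-fold or more, against 1.95% of 12025 genes, with a median of 0.86 against 0.13 for all genes. H2-DMb1 was the only member with a value under wild type, at -0.22, but it fell below the filter and rests on about 6.49 and 3.75 fragments. Ciita differed by 0.18, also below the filter. Relative to the median of all genes, H2-Aa differed by 1.43 and Cd74 by 1.27. The differences of the 2 knockouts share the wild-type column, so each is given here on its own and their likeness is not a result.

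The knockout columns share no sample and can be set against each other. The 6 genes past the filter had values above 0 for Lbr minus Lmna, and 0 of 6 reached 2-fold, against 1.51% of 12198 genes in either direction. H2-Eb1 differed by 0.76, Cd74 by 0.75, H2-DMb1 by 0.68, H2-DMa by 0.47, H2-Ab1 by 0.45 and H2-Aa by 0.21. Their median was 0.58, and that of all genes was -0.02. A pseudocount of 0.1 took the value for H2-DMb1 to 1.13. Differences between the chains within a column were smaller in the Lbr knockout, where H2-Aa, H2-Ab1 and H2-Eb1 lay within 16.5 to 16.8 FPKM, than in wild type, where they lay within 4.14 to 6.66 FPKM. The ratio of H2-Ab1 to H2-Aa was 1.61 in wild type, 1.00 in the Lbr knockout and 0.837 in the Lmna knockout. Cd74 was 2.69, 3.94 and 3.25 times the mean of the 3 chains in the same order of columns.

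**Figure D2:**
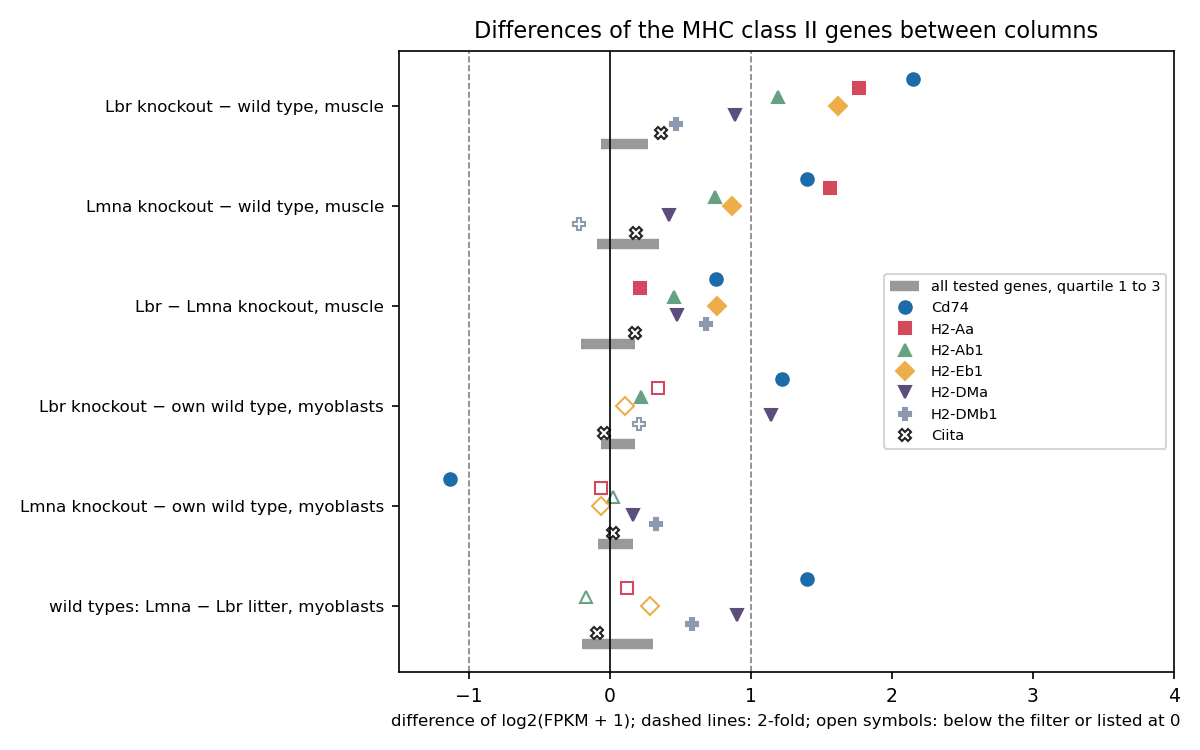
Differences of log2(FPKM + 1) for the 7 genes in 6 comparisons; dashed lines mark 2-fold, open symbols mark genes below the filter or listed at 0, and grey bars span the middle quartiles of all genes compared. In both muscle knockouts Cd74 and H2-Aa lie right of the 2-fold line, and in myoblasts Cd74 lies right of it in the Lbr knockout (1.22) and left of it in the Lmna knockout (-1.14).

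Genes that act beside the members were taken from lists, each given by its count at 2-fold or more among genes past the filter. Of the other class II genes, H2-Ob, the beta chain of the DM inhibitor H2-DO, was at 0.449, 3.36 and 2.02 FPKM in wild-type, Lbr-knockout and Lmna-knockout muscle. It differed by 1.59 and 1.06, the only gene of its list at 2-fold or more among 3 past the filter in the Lbr knockout and 1 in the Lmna knockout. Since H2-Ob was under 1 FPKM in wild type, it passed the filter only through the knockouts, and these counts are no support. The same holds for H2-Oa and H2-DMb2 (0.703 FPKM in wild type), which passed only through the Lbr knockout. H2-Oa, the partner of H2-Ob, differed by 0.79 in the Lbr knockout (0.685 and 1.91 FPKM) and by -0.27 in the Lmna knockout, there below the filter. H2-DMb2, a close paralog of H2-DMb1, differed by 0.80 in the Lbr knockout and by 0.11, below the filter, in the Lmna knockout; reads of the pair may be split between them, so both values are uncertain. The I-E alpha pseudogene H2-Ea-ps is listed at 0 in wild-type and Lbr-knockout muscle and at 0.436 FPKM in the Lmna knockout. H2-Eb2 measured at most 0.431 FPKM in the 7 columns.

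None of the factors that bind the X and Y boxes reached 2-fold in the Lbr knockout. Of Rfx5, Rfxap, Rfxank, Nfya, Nfyb, Nfyc and Creb1, 0 of 7 reached 2-fold (median 0.07), and Rfx5 measured 2.78 and 2.88 FPKM. In the Lmna knockout 1 of 7 did, Nfyb, a subunit of NF-Y, at 6.74 and 14.9 FPKM (1.04). On the path from interferon gamma to Ciita, 0 of 6 genes reached 2-fold in the Lbr knockout (median 0.21) and 0 of 7 in the Lmna knockout (median 0.32). Irf1, a transcription factor induced by interferon, came nearest in the Lbr knockout with 3.59 and 5.86 FPKM (0.58), and Ifng itself is listed at 0 in 6 of 7 columns. Among proteases and other processing enzymes, Ctss, the cathepsin that trims the invariant chain, was 1 of 7 genes at 2-fold in the Lbr knockout (5.50 and 13.9 FPKM, 1.19). It differed by 0.91 in the Lmna knockout, where 0 of 7 reached 2-fold. March8, a ligase that removes class II from the surface, differed by -0.04 and 0.12. March1, the other gene of that list, measured 0.426, 1.34 and 0.920 FPKM in wild-type, Lbr-knockout and Lmna-knockout muscle. It differed by 0.71 and 0.43, below the filter in both comparisons. Of co-stimulatory genes, Icosl was 1 of 2 at 2-fold in the Lbr knockout (1.01) and differed by 0.89 in the Lmna knockout, where it was the only gene of its list past the filter. Of MHC class I genes, which present peptides from inside the cell, H2-K1 (1.28) and Tap1 (1.02) were 2 of 9 in the Lbr knockout and 0 of 9 reached 2-fold in the Lmna knockout. The class I medians were 0.69 and 0.57. The first is the value of Psmb9, which was at 0.743 FPKM in wild type and passed the filter only through the knockouts. In none of these lists was a gene lower by 2-fold or more in either muscle knockout, against 0.275% and 0.782% of all genes. Higher by 2-fold or more were 1.32% and 1.95% of all genes in the Lbr and Lmna knockouts. In lists this short, here and among the markers below, a count of 0 is near these shares and is no result about the list.

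Genes that lie among the members in the RefSeq order of the class II region varied. Between H2-DMb1 and H2-Ob lie Psmb9, Tap1, Psmb8 and Tap2. The peptide transporter subunit Tap2 differed by 0.11 in the Lbr knockout and by -0.00 in the Lmna knockout, and its partner Tap1 by 1.02 and 0.86. The immunoproteasome subunits differed by 0.69 and 0.97 (Psmb9) and by 0.99 and 0.57 (Psmb8). The chromatin reader Brd2, next to H2-DMa, differed by 0.30 and 0.47, where H2-DMa differed by 0.89 and 0.42. The 3 chain genes H2-Ab1, H2-Aa and H2-Eb1 follow H2-Ob directly.

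Markers of leukocytes moved with the class II genes in muscle. The summed FPKM of Cd74, H2-Aa, H2-Ab1 and H2-Eb1 was 29.6 in wild type, 115 in the Lbr knockout and 74.0 in the Lmna knockout, which is 3.90 and 2.50 times wild type. Over the same columns Ptprc, Coro1a, Cd52 and Laptm5, expressed across leukocytes, summed to 16.1, 60.8 and 47.2 FPKM, or 3.77 and 2.93 times wild type. All 4 were at 2-fold or more in both knockouts, with medians of 1.55 and 1.27. Per FPKM of these pan-leukocyte genes the 4 class II genes measured 1.83, 1.89 and 1.57, so this ratio was within 1.57 to 1.89 while the class II sum itself varied from 29.6 to 115. The 9 B cell markers summed to 13.0, 49.6 and 26.4 FPKM, 3.82 and 2.03 times wild type, and none was at 0 in a muscle column. Of 7 past the filter, 3 were at 2-fold or more in the Lbr knockout (median 0.98) and 2 in the Lmna knockout (median 0.76). Cd79a, a chain of the B cell receptor complex, measured 2.93, 18.4 and 9.08 FPKM, whereas the B cell factor Pax5 measured 1.20, 0.405 and 0.851 FPKM. The 7 T cell markers summed to 5.26, 14.8 and 12.2 FPKM, with 2 of 5 and 1 of 5 at 2-fold or more and medians of 0.82 and 0.86. Of these B and T cell genes, Ms4a1, Cd22, Fcer2a, Cd3d, Cd3e, Cd4, Cd8a and Lck were under 1 FPKM in wild type. Where they passed the filter, they did so only through a knockout, so their place in the counts was set by it. The medians are themselves values of such genes, Fcer2a (0.98) and Ms4a1 (0.76) for B cells, Lck (0.82) and Cd8a (0.86) for T cells. These medians are therefore no support.

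Among markers of other cell types, the macrophage sum differed by less than the class II sum and the lymph node stroma sum by more. The 12 macrophage markers summed to 120, 163 and 148 FPKM, 1.36 and 1.23 times wild type, and 0 of 9 reached 2-fold in either knockout (medians 0.48 and 0.35). Of dendritic cell markers, 1 of 3 did so in the Lbr knockout, the chemokine receptor Ccr7 (0.981 and 3.83 FPKM), and 0 of 4 in the Lmna knockout, with medians of 0.66 and 0.38. Their sums were 27.2, 45.4 and 32.6 FPKM, most of it Fscn1. Lymph node stroma genes summed to 23.5, 107 and 83.5 FPKM, 4.53 and 3.55 times wild type. Most of the wild-type sum was Glycam1, at 21.3, 54.2 and 53.2 FPKM. Ccl21a, listed jointly with Gm1987, measured 0.00249, 26.1 and 17.2 FPKM, so much of the rise came from a gene near 0 in wild type. Of 5 genes, 4 in the Lbr knockout and 3 in the Lmna knockout passed the filter, and these were at 2-fold or more (medians 2.51 and 2.17). Ccl21a and Cxcl13 passed only through a knockout, as did Ccr7 among the dendritic cell markers, and Madcam1 (0.71 and 0.60) and, in the Lmna knockout, Cxcl13 (0.78) fell below the filter, so these counts are partly set by it. Ccl19, a chemokine of lymphoid stroma, measured 1.70, 21.7 and 11.2 FPKM. Endothelial markers had 0 of 5 at 2-fold in each knockout (medians 0.27 and 0.36), and muscle fibre genes 0 of 4 (medians -0.04 and -0.35). The 4 myoblast markers had 0 of 4 in each (medians 0.05 and -0.08). The part of leukocyte and lymphoid content in the class II differences was not tested.

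**Figure D3:**
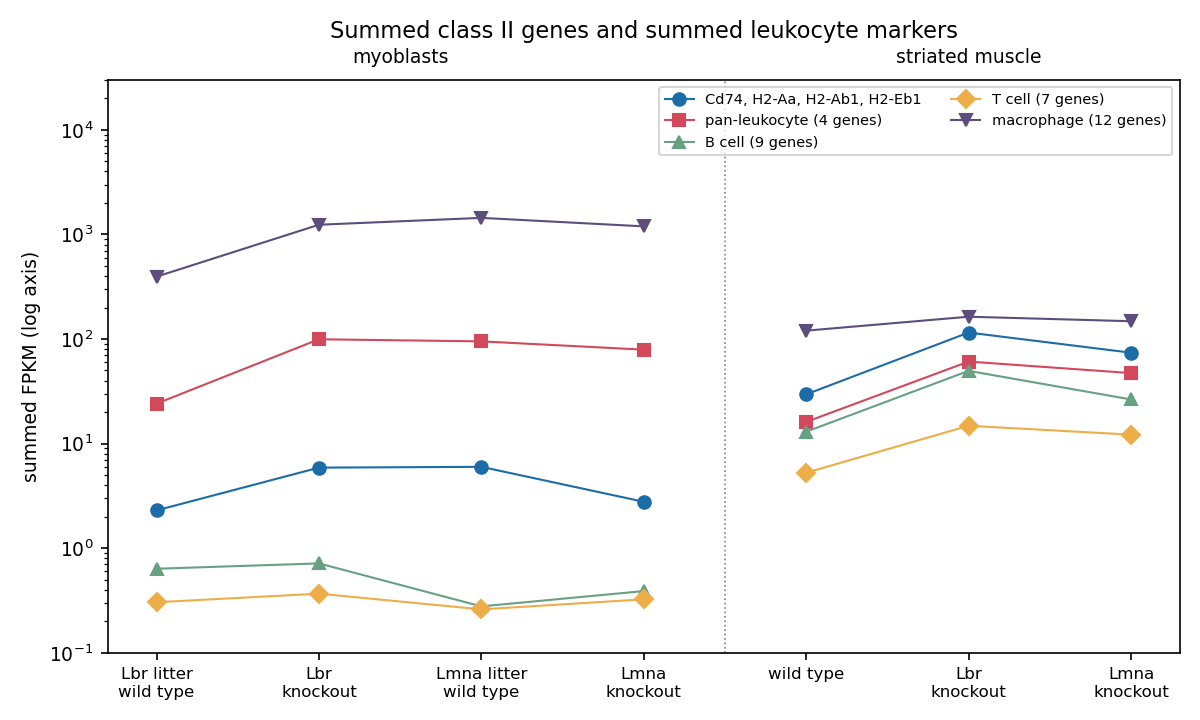
Summed FPKM (log axis) of Cd74, H2-Aa, H2-Ab1 and H2-Eb1 and of 4 leukocyte marker lists in the 7 columns, 1 value per column; lines only join columns of a tissue. In muscle the class II sum (29.6, 115 and 74.0) runs near the pan-leukocyte sum (16.1, 60.8 and 47.2), while the macrophage sum spans 120 to 163; in myoblasts the class II sum is 2.30 to 5.99 beside a macrophage sum of 395 to 1439.

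The genes most like the 4 core class II genes were then listed by the distance of their profile over the 7 columns, centred log2(FPKM + 1), from the mean profile of Cd74, H2-Aa, H2-Ab1 and H2-Eb1. Of 12448 genes, the nearest were Cd79b (distance 0.57), A330049M08Rik (0.57), Pigr (0.62), Cd79a (0.62), Rhox8 (0.67), Gabrr2 (0.74), Cldn19 (0.75) and Ccl27a (0.76). Cd79a and Cd79b are the signalling chains of the B cell receptor, and Pigr is the epithelial transporter of polymeric immunoglobulins. Pearson's r with the mean profile was 0.98 to 0.99 over the 7 columns, of which 4 are myoblast and 3 muscle columns made with another kit, and of which the muscle columns set most of the profile. The 4 genes define that profile, and the other members were far from it: 2997 other genes were nearer than Ciita, 4571 nearer than H2-DMa and 4792 nearer than H2-DMb1. Ciita averaged under 1 FPKM, where log2(FPKM + 1) flattens a profile, and other genes that low were not among the 12448. Its FPKM was 0 to 0.0645 in myoblasts and 0.296, 0.666 and 0.470 in wild-type, Lbr-knockout and Lmna-knockout muscle. The distance of Ciita therefore reflects its low level and does not show a different course.

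**Figure D4:**
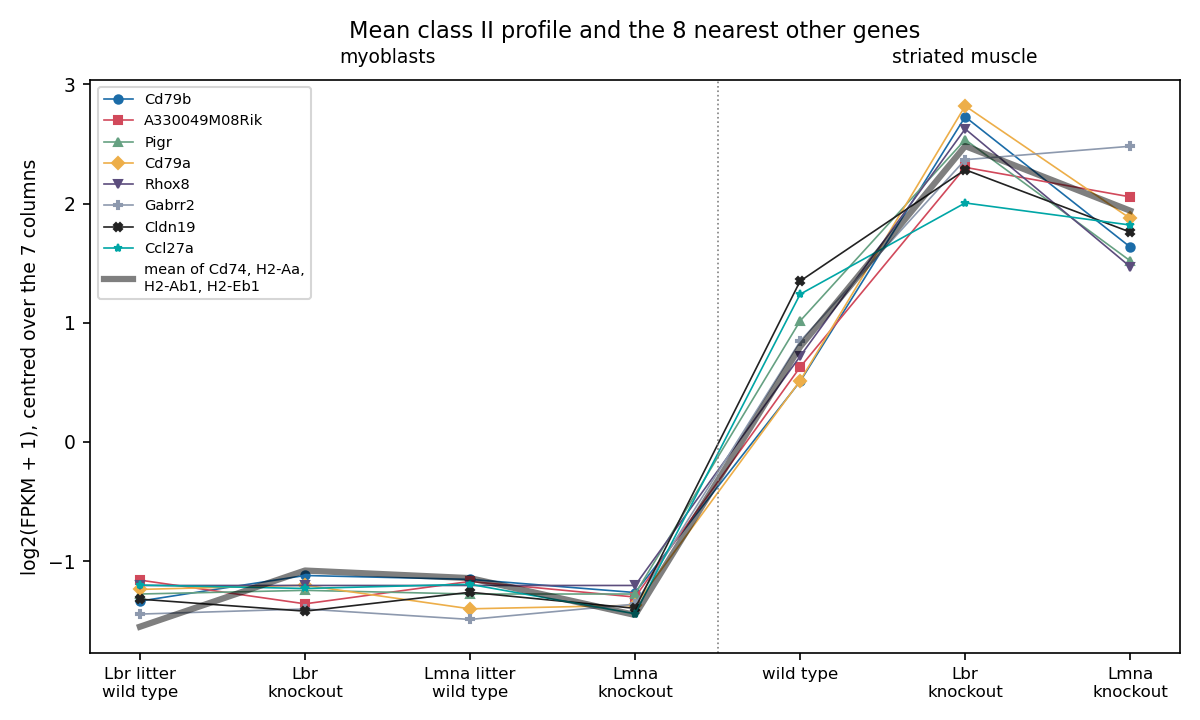
Centred log2(FPKM + 1) over the 7 columns for the mean of Cd74, H2-Aa, H2-Ab1 and H2-Eb1 (thick grey line) and the 8 nearest other genes. The mean profile stands at -1.55 to -1.08 in the myoblast columns, 0.80 in wild-type muscle, 2.48 in the Lbr knockout and 1.94 in the Lmna knockout.

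Between wild-type muscle and the mean of the wild-type myoblast columns, the invariant chain and the antigen-binding chains were higher in muscle. Cd74 differed by 1.92, H2-Aa by 2.17, H2-Ab1 by 2.08 and H2-Eb1 by 2.24. These were 4 of 6 genes higher by 2-fold or more, against 17.5% of 11994 genes, and the median of all genes was -0.56. H2-Aa, H2-Ab1 and H2-Eb1 passed the filter only through muscle, the tissue where they are high, so this count is no support. The DM chains, in contrast, were at similar FPKM in both tissues, H2-DMa at 2.003 and 2.58 and H2-DMb1 at 1.13 and 1.21. Their differences of -0.25 and -0.05 became 0.31 and 0.51 once the median of all genes was subtracted, so no direction is given. H2-DMa and H2-DMb1 made up 47.0% to 70.1% of the summed FPKM of the 7 genes in myoblasts, against 4.91% to 9.51% in muscle. H2-DMa was 4.03 to 11.0 times the mean of the 3 chains in myoblasts and 0.254 to 0.386 times in muscle. Tissue and library kit (NuGEN Ovation for myoblasts, NuGEN complete for muscle) cannot be told apart here.

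In myoblasts Cd74 and H2-DMa differed from their own wild type in the Lbr knockout, and Cd74 in the Lmna knockout, but they also differed between the wild types of the 2 litters. Against the wild type of its own litter, the Lbr knockout was higher by 1.22 for Cd74 and by 1.14 for H2-DMa, while H2-Ab1 differed by 0.22. That is 2 of 3 genes past the filter, against 2.51% of 11472 genes. The Lmna knockout was lower than its own wild type by 2-fold or more for Cd74 (-1.14), 1 of 3 genes, against 0.578% of 11411 genes, and differed by 0.16 for H2-DMa and 0.33 for H2-DMb1. The 2 wild-type libraries differed, Lmna litter minus Lbr litter, by 1.40 for Cd74, 0.90 for H2-DMa and 0.58 for H2-DMb1. Of these, 1 of 3 was at 2-fold or more, against 2.03% of 11402 genes. Set against the other litter's wild type, Cd74 differed by -0.18 in the Lbr knockout and by 0.26 in the Lmna knockout, and H2-DMa by 0.24 and 1.07. Against the mean of both wild types Cd74 differed by 0.36 and -0.60, and H2-DMa in the Lbr knockout by 0.62. A pseudocount of 5 also took these calls below the threshold (Cd74 0.56 and -0.56, H2-DMa 0.55), as did quantile normalization (0.95 and -0.98, 0.89).

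A limma fit across the 4 myoblast columns, in which the wild types formed a single group, held only 3 members: Cd74, H2-DMa and H2-DMb1. H2-Aa, H2-Ab1, H2-Eb1 and Ciita averaged under 1 FPKM over these columns and were not fitted. For Lbr knockout minus wild types, Cd74 had a log2 difference of 0.52 ± 0.40 (SE) and H2-DMa of 0.69 ± 0.35, each with an adjusted p of 1 by limma. For Lmna knockout minus wild types, Cd74 had -0.44 ± 0.40, H2-DMa 0.62 ± 0.35 and H2-DMb1 0.62 ± 0.34, each with an adjusted p of 0.9997 by limma. Between the knockouts, Cd74 had 0.96 ± 0.46 (adjusted p = 0.7447 by limma) and H2-DMb1 -0.70 ± 0.39 (adjusted p = 0.8533). Thus 0 of 3 members were called at an adjusted p under 0.05 in each comparison, where the fit called 0.323%, 0.411% and 0.795% of 11447 genes. At an unadjusted p under 0.05 there were 0, 0 and 1 of the 3, beside 2.98%, 3.53% and 6.57% of all genes. The fit has 1 residual degree of freedom among samples, from 2 wild types of different litters, and assumes that the knockout columns vary like them. Beside it stand 25.8 prior degrees of freedom from the variance trend over all genes. The SEs therefore rest mostly on other genes and do not measure the spread of the wild types, which differed by 1.40 for Cd74.

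Macrophage and pan-leukocyte markers moved with Cd74 and H2-DMa between the myoblast columns, but not in every one. The 12 macrophage markers summed to 395 FPKM in the Lbr-litter wild type and to 1237, 1439 and 1194 FPKM in the Lbr knockout, the Lmna-litter wild type and the Lmna knockout. In the same order the pan-leukocyte genes summed to 24.1, 99.4, 94.9 and 79.1 FPKM. Cd74 and H2-DMa were likewise lowest in the Lbr-litter wild type, but in the Lmna knockout Cd74 was at 1.62 FPKM and H2-DMa at 4.23 FPKM. Of 11 macrophage markers past the filter, 11 were higher by 2-fold or more in the Lbr knockout (median 1.70), 0 in the Lmna knockout (median -0.28), and 9 in the Lmna-litter against the Lbr-litter wild type (median 1.75). B cell and T cell markers were near 0, with sums of at most 0.715 and 0.367 FPKM, and Pax5, Cd3g and Cxcl13 were listed at 0 in all 4 myoblast columns. Cd74, H2-Aa, H2-Ab1 and H2-Eb1 together stood at 0.0351 to 0.0953 FPKM per FPKM of the pan-leukocyte genes in myoblasts, against 1.57 to 1.89 in muscle. The muscle-lineage genes Des and Myod1 lay on the same side of their own wild type as Cd74 in both knockouts. From the Lbr-litter wild type to the Lmna knockout, in that order of columns, Des measured 23.3, 85.2, 32.9 and 18.7 FPKM. Myod1 measured 2.46, 5.51, 5.35 and 2.09 FPKM. Below the filter, Myf5 differed by 0.15 in the Lbr and -0.27 in the Lmna knockout. Pax7, also below it, differed by 0.02 and 0.01, in the Lmna knockout on the other side from Cd74. Des gave most of the sum of the 4 myoblast markers, which was 91.3 FPKM in the Lbr and 21.2 FPKM in the Lmna knockout. Against their own wild types, in the Lbr and the Lmna knockout, these 4 markers summed to 3.48 and 0.545 times. The 4 fibre genes summed to 2.80 and 0.439 times and the 4 core class II genes to 2.56 and 0.463 times. Of the fibre genes, Tnnt3 is listed at 0 in the Lmna knockout, against 20.8 FPKM in its wild type. An exact 0 can be a failed estimate, so the 0.439 rests partly on an unreliable value. The part of macrophage or muscle-lineage content in the myoblast differences was not tested.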

How the data were processed

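The authors deposited a table of FPKM values for 22552 genes, with 1 value per gene and group. Per the submitters' processing notes the genome build was mm9. The aligner, the quantification, the annotation and how 2 samples were joined were not given in the sources used here. Per the labels' protocols, total RNA was isolated with TRIZOL and columns, and libraries were made with NuGEN Ovation (6 myoblast samples) or NuGEN complete RNA-Seq (6 muscle samples).

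Column names gave the group of each of the 7 value columns (0 unmatched). From the deposited FPKM, differences of log2(FPKM + 1) were calculated for genes averaging 1 FPKM or more over the compared columns, leaving out genes listed at 0 in either, since an exact 0 can be a failed estimate. With 1 column per group these comparisons have no test, and 2-fold (a log2 value of 1) stood in for one. The muscle columns hold no spread and were not fitted. The myoblast columns were fitted with limma 3.58.1 (R 4.3.3, variance trend, Benjamini-Hochberg adjustment over all genes; residual 1 and prior 25.8 degrees of freedom). Both calculations were tested on simulated data.

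The 7 genes and all gene lists were chosen with earlier results of these data known. From each list the text gives its counts and up to 4 members by size of change in Lbr-knockout muscle or with a defining role. Rfx5, Nfyb, Tap2, Psmb9, Brd2, Madcam1, Cd22 and Cd4 were added after their values were seen. Trbc1 and Sppl2a were not analysed here. Fragment numbers are rough estimates from the most frequent product of FPKM and GENCODE M21 transcript length, and depend on how samples were pooled; the estimate is weakest for Lmna-knockout muscle, where 95 genes formed the peak used and 103 the highest one. Alternatives were pseudocounts of 0.1 and 5, no filter or one of 5 FPKM, centring on medians, quantile normalization, genes at 0 kept, and other wild-type columns.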

Additional observations from a re-analysis of the deposited data

Results flagged for a closer look

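The change of Cd74, the invariant chain, in the Lmna knockout was 1.40 (log2) in muscle and -1.14 in myoblasts, a difference of 2.53. It is given here because the columns of the 2 tissues lay on opposite sides of their wild types. The difference was not tested, and since each knockout column stands for 2 samples, the direction in each sample was not seen.

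In myoblasts the Cd74 change was 1.22 in the Lbr knockout and -1.14 in the Lmna knockout, each against its own litter, a difference of 2.36. It was flagged for the same reason and was not tested. Against the other litter's wild type the same columns gave -0.18 and 0.26.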

How the results depend on the processing

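In the muscle knockout comparisons, 111 member values under an alternative kept their direction and side of the 2-fold threshold, 2 rose past it (H2-DMa and H2-DMb1, as given above) and 1 fell below it (H2-Ab1). Over all comparisons 203 kept both, 14 fell below and 5 rose past. Changing the filter or keeping genes at 0 alters which genes enter, not the value of a member. Member values under those settings are counted as kept by construction, so these tallies overstate how stable the values were. Members that failed the filter of 5 FPKM were not counted under it. Past the threshold, 2 reversed: Cd74 against the other litter's wild type, at -0.18 in the Lbr and 0.26 in the Lmna knockout. Under it, 3 changed sign, all between tissues: H2-DMa (-0.25) to 0.31 with centring and 0.27 against the Lbr-litter wild type alone, and H2-DMb1 (-0.05) to 0.51 with centring. H2-Aa (0.83) and H2-Eb1 (0.91) missed the threshold between tissues with a pseudocount of 5.

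Counts of all genes at 2-fold moved more. For Lbr muscle (191) they were 449 with a pseudocount of 0.1, 48 with one of 5 and 66 with a filter of 5 FPKM; for Lmna muscle (329), 716, 98 and 187; between the knockouts (184), 427, 56 and 109; for Lbr myoblasts (302), 493, 86 and 135; for Lmna myoblasts (140), 220, 32 and 53; between wild types (309), 599, 93 and 184. A pseudocount of 5 gave 4127 between tissues (6567). Both wild types together gave 128 for Lbr myoblasts, and the other litter's wild type gave 520 for Lmna myoblasts. Centring and quantile normalization took the share of higher calls from 71.4% to 57.0% and 51.3% in Lmna muscle, from 31.9% to 54.3% and 44.6% between tissues, and from 75.1% to 63.3% between wild types with centring; in Lbr muscle, quantile normalization took it from 82.7% to 64.0%.

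The limma calls (37, 47 and 91 for Lbr minus wild types, Lmna minus wild types and Lbr minus Lmna) became 0, 0 and 0 without a filter (545, 438 and 641 at an unadjusted p under 0.05), 4, 19 and 25 with centring and 1, 1 and 0 with quantile normalization (428 unadjusted in the last). With centring the split of higher and lower was 4 and 0, 7 and 12, and 25 and 0, against 32 and 5, 24 and 23, and 78 and 13. For the first contrast, pseudocounts of 0.1 and 5 gave 14 and 71; with genes at 0 kept, the first and second gave 86 and 97. The cause was not tested. No paired analysis was possible because each group has 1 column with no replicate numbers, and leaving out a replicate could not be run for the same reason. By estimated fragments, depth limits Ciita and H2-DMb1 in muscle (3.75 to 12.7) and H2-Aa and H2-Eb1 in myoblasts (1.77 to 9.08), as well as Ciita there (0 to 6.21).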
